A study of Mus musculus with 13 samples.

Results

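The nuclear genes of oxidative phosphorylation were examined as a set in RNA pull-downs made with a fragment of dAKAP1, an RNA-binding anchoring protein of the outer mitochondrial membrane that holds protein kinase A there. Members were chosen by symbol alone: Ndufa, Ndufb, Ndufc, Ndufs, Ndufv and Ndufab1 for complex I, Sdha to Sdhd for complex II, Cyc1 and the Uqcr genes for complex III, Cycs for cytochrome c, the Cox4 to Cox8 subunit genes for complex IV, and the Atp5 genes for complex V, which is ATP synthase. Complexes were also assigned by symbol, as for Ndufa4 in complex I, and not by where the protein is found. Atp5j2 and symbols that name pseudogenes were left out. This gave 82 genes of 27071 in the count table: 37 in complex I, 4 in complex II, 9 in complex III, 1 for cytochrome c, 15 in complex IV and 16 in complex V.

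All RNA came from MA-10 cells, a mouse Leydig tumour cell line, grown in RPMI medium with horse serum and extracted with Trizol. The KHT group (n = 4 libraries) is RNA held by purified KH and Tudor domains of dAKAP1 with an MBP (maltose-binding protein) tag, captured with antiMBP. Title and treatment name these libraries KHT, while their description field carries the same words on negative controls as that of NEG, and the title was followed here. The NEG group (n = 4 libraries with counts, numbered 1, 3, 4 and 5, since NEG 2 was 0 for every gene) is RNA from control captures with beads alone, MBP or the altered protein KHT(GDDG), and the labels do not say which library had which bait. The IPT group (n = 4) is the input RNA, called untreated. The library kit was for stranded total RNA after removal of ribosomal RNA, while the molecule field names polyA RNA. The labels do not say that replicates came from separate cultures, so the p-values measure the spread between libraries, which may be technical. The comparisons ask which RNAs the KHT protein held relative to the control baits and to the input.

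Oxidative phosphorylation moves electrons from NADH and succinate through complexes I and II, ubiquinone, complex III, cytochrome c and complex IV to oxygen, and the proton gradient built on the way drives ATP synthase. Most subunits are encoded in the nucleus, made in the cytosol and imported, and the mRNAs of some are translated at the mitochondrial surface, where dAKAP1 lies. In Leydig cells the mitochondrion also starts steroid synthesis from cholesterol.

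No transcript sequence was used here, so no sequence of the RNA held in the pull-downs is shown. The promoters of the set can be shown, because the genes were known beforehand for sharing promoter elements, among them the site of NRF-1, a regulator of respiratory chain genes. RefSeq windows of GRCm38.p6 matched 67 of the 82 members, 2 of them through an older name. The letters GCGCANGCGC, searched on both strands in the 250 bases before the annotated start, were found in 13 of these 67 genes (19.4%), against 1144 of 27025 genes with a window (4.23%). A shorter ETS motif, CCGGAAG, was found in 12 of the 67 (17.9%), against 7.83% of all genes, and CCAAT in 29 (43.3%), against 37.5%. A letter match is not a bound site, and the pull-downs did not measure these promoters. The windows below belong to members of 3 complexes whose values are given further on, with the NRF-1 letters in capitals.
Ndufa11 (complex I, chr17:56717682-56717731, plus strand): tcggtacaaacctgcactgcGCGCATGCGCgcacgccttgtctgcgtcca
Ndufb4 (complex I, chr16:37654530-37654579, minus strand): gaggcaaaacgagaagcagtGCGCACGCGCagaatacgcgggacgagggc
Sdha (complex II, chr13:74350309-74350358, minus strand): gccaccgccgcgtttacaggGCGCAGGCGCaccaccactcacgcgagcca
Atp5g2 (complex V, chr15:102671060-102671109, minus strand): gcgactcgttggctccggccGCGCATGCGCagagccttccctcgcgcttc

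Libraries held 1955450 to 3689790 counts in KHT, 1162180 to 1619000 in NEG and 2487680 to 3085420 in IPT. In NEG, 96.0% to 98.1% of these lay in 9 dominant features, such as Lars2 and mt-Rnr2, against 29.3% to 52.7% in KHT and 26.7% to 37.99% in IPT. The rest came to 929348 to 2101630 counts in KHT, 31318 to 49062 in NEG and 1542710 to 2237370 in IPT. In TMM-scaled CPM (counts scaled by library size), 1 count was worth 0.113 to 0.248 in KHT, 4.09 to 6.69 in NEG and 0.105 to 0.149 in IPT, so NEG values move in coarse steps. The summed level of 10 Leydig cell markers was 365, 373, 576 and 579 CPM in KHT and 0, 72.4, 87.0 and 400 CPM in NEG 1, 3, 4 and 5, against 364, 605, 547 and 690 CPM in IPT. All 10 were thus at 0 in NEG 1, and NEG 5 lay within the range of the KHT and IPT libraries.

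As a share of counts outside the dominant features, the set took about as much in KHT as in the input, and the shares of the control libraries lay on both sides of these. The set took 0.967%, 0.890%, 1.02% and 1.04% of counts outside the dominant features in KHT libraries 1 to 4. It took 0.645%, 0.880%, 0.970% and 1.19% in NEG libraries 1, 3, 4 and 5, and 0.930%, 1.10%, 1.07% and 1.13% in IPT libraries 1 to 4. The 3 groups overlapped, with the lowest and the highest of the 12 shares both in NEG. The counts behind these shares were 9332 to 21472 in KHT and 202, 346, 336 and 582 in NEG, against 16539 to 25256 in IPT. A share does not give an amount, so more RNA of these genes and less of other RNA cannot be told apart.

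**Figure D1:**
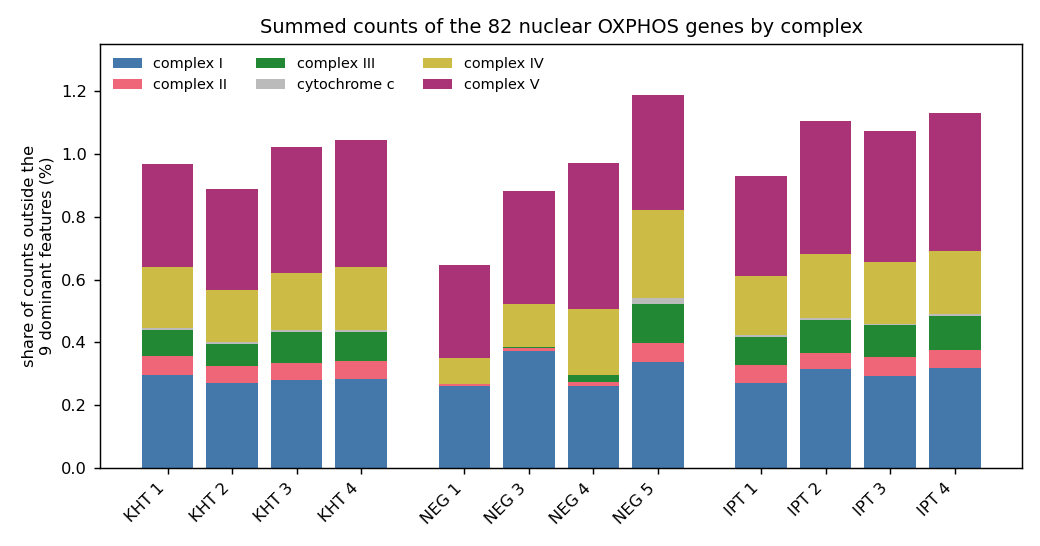
Summed counts of the 82 genes as a percent of each library's counts outside the 9 dominant features, stacked by complex, for each KHT, NEG and IPT library. The total lies between 0.645% (NEG 1) and 1.19% (NEG 5), while the parts for complexes II and III are thin or missing in NEG 1, 3 and 4.

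Which complexes supplied the counts differed between the control libraries. Complex III, which passes electrons from ubiquinol to cytochrome c, took 0.0854%, 0.0720%, 0.0977% and 0.0938% of counts in KHT and 0%, 0.00509%, 0.0202% and 0.124% in NEG 1, 3, 4 and 5, against 0.0894% to 0.109% in IPT. No count of its 9 genes was found in NEG 1, which allows a share of up to 0.00958%, so NEG 1, 3 and 4 lay below every KHT and IPT library and NEG 5 above them. Complex II, succinate dehydrogenase, followed the same order, with 0.0534% to 0.0598% in KHT and 0.00639%, 0.00763%, 0.0144% and 0.0612% in NEG, against 0.0527% to 0.0581% in IPT. Cycs, cytochrome c, had 9 counts in NEG 5 and none in NEG 1, 3 and 4. The shares of complexes I, IV and V in NEG reached both below and above those in KHT and IPT. Complex V averaged 0.363% ± 0.0443 in KHT and 0.371% ± 0.0706 in NEG, against 0.398% ± 0.0548 in IPT (SD, n = 4 each). Its F1 part (Atp5a1, Atp5b, Atp5c1, Atp5d and Atp5e) took 0.0128%, 0.0356%, 0.0347% and 0.139% in NEG, against 0.1455% to 0.190% in KHT and 0.161% to 0.216% in IPT. The other genes of complex V took 0.226% to 0.430% in NEG, against 0.156% to 0.216% in KHT and 0.156% to 0.221% in IPT.

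The member counts of NEG 1, 3 and 4 were concentrated in a pair of genes. Atp5g3, 1 of 3 genes for subunit c of ATP synthase, and Ndufab1, the mitochondrial acyl carrier protein that is also a complex I subunit, made up 57.9%, 45.7% and 44.6% of all member counts in NEG 1, 3 and 4. In NEG 5 the first pair of genes by count, Atp5g3 and Atp5b, held 11.9%, against 14.1% to 18.6% in KHT and 13.6% to 17.8% in IPT, where Atp5b, the catalytic beta subunit of ATP synthase, came first in every library. Expressed per library, 80 or 81 members were above 0 in KHT and 20, 36, 39 and 69 in NEG 1, 3, 4 and 5, against 81 or 82 in IPT. Across the 4 NEG libraries, 23 members had counts in NEG 5 alone, 4 had counts only outside NEG 5, 9 had none and 15 were above 0 in all 4. These numbers were not taken over all genes, so they do not show a trait particular to the set. Of the 10 Leydig cell markers, 0, 3, 4 and 10 were above 0 in NEG 1, 3, 4 and 5.

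How the counts were divided among members was also compared with the mean of the IPT libraries, leaving out the library itself for IPT. Across the 82 genes, Pearson's r of the log2 shares was 0.933 to 0.978 for the KHT libraries and 0.244, 0.344, 0.427 and 0.762 for NEG 1, 3, 4 and 5, against 0.905 to 0.964 for the IPT libraries. These describe genes within a library, which are not independent, and the NEG values rest on 202 to 582 counts, with more than 40 of the 82 members at 0 in NEG 1, 3 and 4 and 13 at 0 in NEG 5. KHT and IPT libraries lay within the same range, and NEG 5 lay between them and the other NEG libraries.

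**Figure D2:**
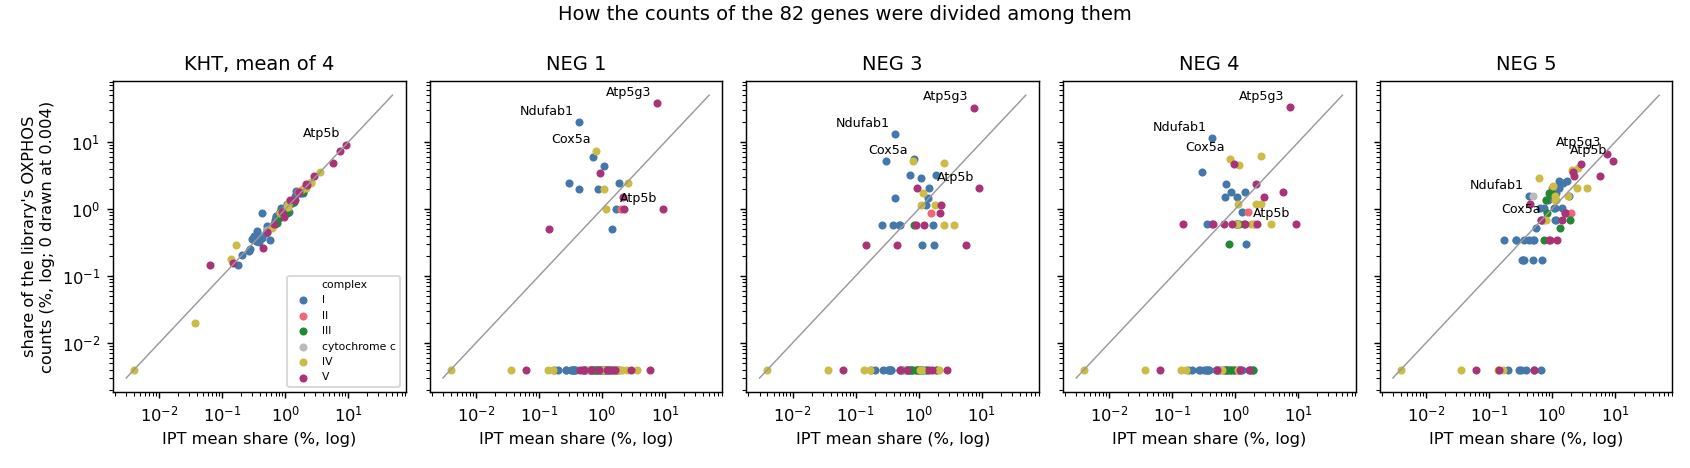
Share of a library's counts over the 82 genes taken by each gene, in the mean of the KHT libraries and in NEG 1, 3, 4 and 5 (vertical), against the mean of the IPT libraries (horizontal), both on log axes in percent with 0 drawn at 0.004 and colours for the complexes. KHT lies along the line of equality, while in NEG 1, 3 and 4 Atp5g3 and Ndufab1 stand far above it and many members lie at 0.

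Relative to NEG, 20 of 79 tested members rose in KHT and 5 fell, in edgeR's quasi-likelihood test at an adjusted p under 0.05 over 10714 genes. Of all genes tested, 31.0% rose and 2.72% fell, so in this fit the set, with 25.3% and 6.33%, rose no more often than the background. That order changed in some other runs, as given below. The change was above 0 for 65 members, as it was for 87.2% of all genes. The median log2 fold change of the set was 1.08, against 1.73 over all genes. Genes with no NEG count made up 7.59% of tested members and 27.9% of all genes. With such genes set at their bounds, the medians were 1.03 for the set and 0.94 for all genes. The bounds are lower limits and were used for a larger share of all genes than of the set. Among genes with a NEG count the medians were 1.03 for the set and 1.18 for all genes. KHT and NEG libraries did not overlap for 25 members that were higher in KHT, where 45.8% of all genes did so, and for none that were lower, where 1.02% of all genes did so. By complex, the rises were 8 of 37 in complex I, 2 of 4 in complex II, 3 of 9 in complex III, 2 of 12 in complex IV and 5 of 16 in complex V, and the falls were 3 in complex I and 1 each in complexes IV and V.

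The number of calls moved with the NEG libraries used. Without NEG 5, 51 of 80 members (63.7%) rose and 6 (7.5%) fell, beside 47.2% and 3.95% of all genes. The set there rose more often than the background, and the median over all genes was 6.24. Without NEG 1 or without NEG 3 the rises numbered 13, 16.2% of members, beside 15% and 21.6% of all genes. The falls numbered 2 without NEG 3 and 3 without NEG 4, beside 1.52% and 1.62% of all genes. Under total counts with no TMM scaling 78 of 79 members and 97.3% of all genes were higher in KHT and no member was lower. The fit of KHT and NEG alone leaves out the IPT libraries. There 8 members rose and 3 fell (10.5% and 3.95%), beside 24.8% and 3.17% of all genes. Among the members described below, the calls lost in that fit were those of Sdha, Sdhb, Uqcrc1, Ndufa11, Ndufb4, Cox4i1, Cox7a1, Atp5b, Atp5h, Ndufb7 and Atp5l.

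Among the rises in complexes II and III, Sdha, the flavoprotein of succinate dehydrogenase, stood at 50.8, 45.7, 46.8 and 47.4 CPM in KHT and at 8.49, 0, 13.4 and 20.4 CPM in NEG (log2 fold change 2.10, SE 0.58, edgeR adjusted p = 0.0122). Its iron-sulfur partner Sdhb stood at 36.8 to 43.8 CPM in KHT and 0 to 20.4 CPM in NEG (1.56, SE 0.56, edgeR adjusted p = 0.0381). Every KHT library lay above every NEG library for both. In the fit of KHT and NEG alone neither passed, with an edgeR adjusted p of 0.0734 for Sdha and 0.178 for Sdhb.

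Cyc1, cytochrome c1 of complex III (chr15:76343513-76346260), stood at 41.6, 37.0, 45.7 and 41.2 CPM in KHT. It was at 0 in NEG 1, 3 and 4 and at 16.3 CPM in NEG 5, where all 4 of its NEG counts lay (log2 fold change 3.07, SE 0.72, edgeR adjusted p = 0.0062). The groups did not overlap, and Cyc1 kept an adjusted p under 0.05 in every alternative run. Uqcrc1, a core subunit of complex III, rose as well, at 29.3 ± 2.95 CPM in KHT and 6.41 ± 7.42 CPM in NEG (2.22, SE 0.64, edgeR adjusted p = 0.0156). The Rieske protein gene Uqcrfs1 stood at 20.3 ± 4.64 CPM in KHT and 12.5 ± 17.3 CPM in NEG and did not pass (0.58, SE 0.62, edgeR adjusted p = 0.444).

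Several complex I members had so few NEG counts that the change is given from pooled counts. Ndufc1 had 83, 60, 85 and 45 counts in KHT and none in NEG, so that, with 3 counts over all of NEG taken as its upper limit, it was at least 2.91-fold higher. By the same limit, which covers counting error only, Ndufs7 was at least 2.47-fold, Ndufb4 at least 1.33-fold and, in ATP synthase, Atp5e at least 2.71-fold higher. Ndufs7 is a core iron-sulfur subunit, the others are small accessory or epsilon subunits, and all 4 passed the test. Ndufa10 had 429 counts over KHT and 1 over NEG, a ratio of 13.7 with a 95% counting interval of 2.45 to 543, and Ndufa11 had 266 and 1, a ratio of 8.51 (1.51 to 337).

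Of the 7 core subunits of complex I measured, Ndufs7 alone rose and none fell, beside 7 rises and 3 falls among its 30 other genes, and the difference between these shares was not tested. Ndufs1, which carries iron-sulfur clusters, stood at 36.5, 38.8, 44.95 and 40.2 CPM in KHT and at 0, 6.03, 0 and 61.3 CPM in NEG (1.08, SE 0.68, edgeR adjusted p = 0.195). NEG 5 was above every KHT library and the other NEG libraries far below. Ndufv1, the NADH-binding subunit, averaged 35.3 ± 5.51 CPM in KHT and 24.8 ± 15.1 CPM in NEG and did not pass (edgeR adjusted p = 0.321).

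In complex IV, Cox4i1, a regulatory subunit, stood at 82.7, 70.3, 85.2 and 85.7 CPM in KHT and at 0, 12.1, 13.4 and 49.0 CPM in NEG, without overlap (2.06, SE 0.70, edgeR adjusted p = 0.0296). In ATP synthase, Atp5b stood at 213, 177, 221 and 225 CPM in KHT and at 8.49, 42.2, 13.4 and 123 CPM in NEG, also without overlap (2.13, SE 0.77, edgeR adjusted p = 0.0397). In the fit of KHT and NEG alone the edgeR adjusted p was 0.105 for Cox4i1 and 0.151 for Atp5b, and Atp5b was under 0.05 only without NEG 1 or without NEG 5 among the fits that left out 1 library. The alpha subunit Atp5a1 was at 113 ± 23.8 CPM in KHT and 29.9 ± 34.0 CPM in NEG and did not pass (1.89, SE 0.79, edgeR adjusted p = 0.0665), although its groups did not overlap either. The peripheral stalk genes Atp5o, Atp5j and Atp5h rose by 2.72, 2.62 and 2.08 on the log2 scale (edgeR adjusted p = 0.00999, 0.0083 and 0.0208).

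**Figure D3:**
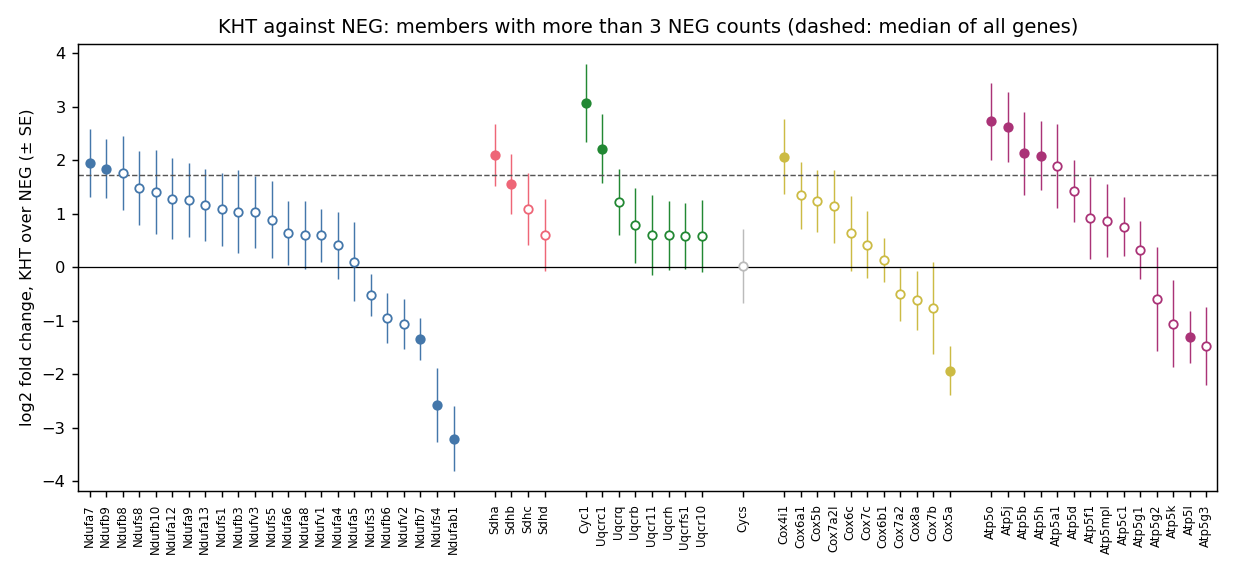
Log2 fold change of KHT over NEG with its SE for members with more than 3 counts over NEG, grouped by complex, with filled points for an edgeR adjusted p under 0.05 and a dashed line at the median of all genes tested (1.73). All points of complexes II and III lie above 0, as did the change for 87.2% of all genes. For some of them the SE is larger than the change, as for Uqcrfs1 (0.58, SE 0.62), and not all passed. Ndufab1 (-3.20), Ndufs4, Cox5a (-1.93), Ndufb7 and Atp5l lie below 0 with filled points. Under total counts with no TMM scaling no member was lower in KHT.

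The members that fell were high in the control libraries NEG 1, 3 and 4. Ndufab1 (chr7:122086815-122101848) stood at 14.0, 37.0, 8.47 and 19.6 CPM in KHT and at 170, 271, 254 and 36.8 CPM in NEG 1, 3, 4 and 5, from 107, 162, 75 and 79 counts in KHT and 40, 45, 38 and 9 in NEG. KHT 2 lay just above NEG 5, so the groups overlapped by that pair of libraries (log2 fold change -3.20, SE 0.61, edgeR adjusted p = 0.00273). The change was between -3.92 and -2.89 in every alternative run but 1, and 0.95 under total counts with no TMM scaling. The pseudogene Ndufab1-ps had 9 counts in KHT 1 and none in any other library.

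Cox5a, a subunit of complex IV (chr9:57517328-57532427), stood at 18.9, 25.8, 18.2 and 16.4 CPM in KHT and at 63.7, 109, 127 and 16.3 CPM in NEG (-1.93, SE 0.46, edgeR adjusted p = 0.00663). NEG 5 lay below all KHT libraries and the other NEG libraries far above them. Ndufs4, Ndufb7 and Atp5l, named after their values were seen, fell too, by 2.57, 1.34 and 1.31 (edgeR adjusted p = 0.0153, 0.0175 and 0.0431), with NEG 5 the lowest NEG library for each. Under total counts Cox5a was higher in KHT (2.24).

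Atp5g3 (chr2:73908447-73912464) stood at 89.7, 169, 208 and 223 CPM in KHT and at 327, 681, 750 and 159 CPM in NEG, against 109, 203, 202 and 224 CPM in IPT. NEG 1, 3 and 4 lay above every other library and NEG 5 within the KHT range, and the change did not pass (-1.47, SE 0.73, edgeR adjusted p = 0.112), but it did in DESeq2 (0.0122) and without NEG 5 (0.0112). For the other genes of subunit c the changes did not pass either, and differences between the genes were not tested. Atp5g1 stood at 64.3, 62.8, 42.7 and 45.2 CPM in KHT and at 12.7, 18.1, 53.5 and 85.8 CPM in NEG, with NEG 5 the highest (0.32, SE 0.54, edgeR adjusted p = 0.638). Atp5g2 stood at 1.97, 7.76, 2.94 and 1.24 CPM in KHT and at 4.24, 6.03, 13.4 and 0 CPM in NEG, from 0 to 2 counts in each NEG library, with NEG 5 the lowest (-0.59, SE 0.97, edgeR adjusted p = 0.630).

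Of the markers of other cell types, Krt5, Krt14 and Pecam1 were high in NEG 1, 3 and 4, and the others were not. The summed level of Krt5, Krt14, Epcam and Cdh1, markers of epithelium, was 2.76, 29.5, 3.50 and 8.94 CPM in KHT and 89.1, 175, 121 and 0 CPM in NEG 1, 3, 4 and 5, against 0.564 to 5.33 CPM in IPT. It came from the keratins in NEG, where Epcam and Cdh1 were at 0. Krt14 had 0, 98, 11 and 22 counts in KHT 1, 2, 3 and 4, where Ndufab1 stood at 14.0, 37.0, 8.47 and 19.6 CPM. Pecam1 and Cdh5, markers of endothelium, summed to 12.6 to 21.6 CPM in KHT and 149, 157, 147 and 28.6 CPM in NEG, against 11.9 to 27.6 CPM in IPT. Nearly all of the NEG sum was Pecam1, with 35, 24, 20 and 5 counts, while Cdh5, the more specific marker, had 0, 2, 2 and 2 counts. The markers of Sertoli and germ cells and of macrophages were at 0 in all NEG libraries. The part of these in the values of Ndufab1, Cox5a and Atp5g3 was not tested.

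Relative to IPT, no member passed edgeR's test in KHT in either direction. Among all 10714 genes, 1 rose (0.00933%) and none fell, while 102 and 73 had an unadjusted p under 0.05, and DESeq2 called 4 and 3. At an unadjusted p under 0.05, edgeR marked 1 member higher, Atp5s, and 1 lower, Ndufc2. DESeq2 marked 5 members at that level, where all genes were not counted. The members' log2 fold changes ran from -0.90 to 1.02, with 26 of 79 above 0 and 53 below, where 51.4% of all genes lay above 0 and 48.6% below. Their median was -0.11, against 0.01 over all genes. The 95% interval of the change lay within 2-fold either way for 38 of the 79 members, beside 4857 of all 10714 genes. In the fit of KHT and IPT alone, which leaves out the spread of NEG, it did so for 71 of the 79. Intervals over all genes were not counted in that fit.

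**Figure D4:**
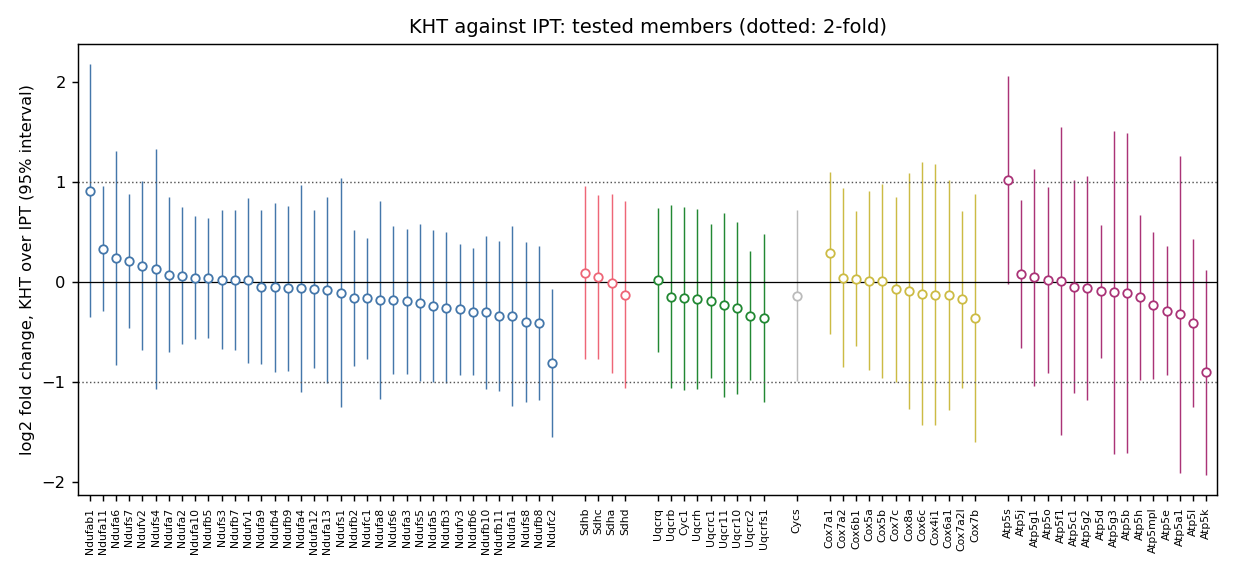
Log2 fold change of KHT over IPT with its 95% interval for tested members, grouped by complex, with dotted lines at 2-fold. Every point lies between -0.90 (Atp5k) and 1.02 (Atp5s), and no member passed at an edgeR adjusted p under 0.05.

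The abundant members and Cycs had levels in KHT close to those in the input. Atp5b averaged 209 ± 21.9 CPM in KHT and 226 ± 27.4 CPM in IPT, and Cox4i1 averaged 80.97 ± 7.22 CPM in KHT and 88.5 ± 4.79 CPM in IPT (SD, n = 4 each). Cyc1 averaged 41.4 ± 3.58 CPM in KHT and 46.4 ± 3.97 CPM in IPT, Sdha 47.7 ± 2.22 CPM in KHT and 48.1 ± 5.99 CPM in IPT, and Cycs 11.2 ± 1.85 CPM in KHT and 12.3 ± 1.38 CPM in IPT. None of these passed the test: the differences for Cyc1 and Cox4i1 were slightly larger than the SD within either group and the others smaller than the larger SD.

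Ndufab1, at 14.0, 37.0, 8.47 and 19.6 CPM in KHT and 11.3, 11.0, 8.34 and 11.1 CPM in IPT, had a change of 0.91 (95% interval -0.35 to 2.17, edgeR adjusted p = 1.00), with an unadjusted p of 0.116, and of 0.0431 in the fit of KHT and IPT alone. KHT 2 was the highest, and the groups overlapped. Ndufc2, an accessory subunit of complex I, stood at 9.32, 9.36, 7.23 and 5.71 CPM in KHT and at 11.0, 17.5, 10.1 and 17.1 CPM in IPT (-0.81, 95% interval -1.55 to -0.07, edgeR adjusted p = 1.00). Its groups did not overlap, which held for 2 members, both lower in KHT, where 1.17% of all genes were lower without overlap and 0.840% higher. Atp5s, placed in complex V by its symbol alone, stood at 2.36, 5.02, 1.69 and 3.97 CPM in KHT and at 1.49, 0.986, 1.94 and 1.78 CPM in IPT (1.02, 95% interval -0.02 to 2.06, edgeR adjusted p = 1.00). Ndufc2, Atp5s and the other member without overlap, Ndufv3, were named after their values were seen.

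Some values in KHT 1, KHT 2 and IPT 1 stood apart from those in the other KHT and IPT libraries. Over 5337 genes, the deviations of KHT 1 and KHT 2 from the mean of the KHT and IPT libraries correlated with that of IPT 1 (r = 0.449 and 0.513) but not with each other (r = -0.0419), a description across genes of libraries that share a mean. The share of complex V was 0.328% and 0.322% in KHT 1 and 2 and 0.317% in IPT 1, and 0.400%, 0.403%, 0.422%, 0.417% and 0.437% in KHT 3 and 4 and IPT 2, 3 and 4. Atp5k, subunit e of ATP synthase, had 2.63, 3.65, 6.78 and 11.4 CPM in KHT, against 5.33, 12.8, 12.5 and 14.3 CPM in IPT. Its lowest values in each group thus lay in KHT 1 and 2 and in IPT 1. Leaving out these 3 libraries, a choice made after seeing the data, no member passed between KHT and IPT. In KHT relative to NEG 12 members rose and 4 fell (15.2% and 5.06%), beside 21.7% and 2.67% of all genes.

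Cox6a2 varied most of all members among KHT and IPT libraries. It encodes the isoform of complex IV subunit VIa known from heart and skeletal muscle (chr7:128205435-128206366). Its counts were 104, 45, 6 and 2 in KHT and 0 in all NEG libraries, against 130, 1, 3 and 2 in IPT. The high values, 13.7 and 10.3 CPM in KHT 1 and 2 and 13.8 CPM in IPT 1, lay in the 3 libraries just named, and the other 5 were at 0.141 to 0.678 CPM. Its partner isoform Cox6a1, known from most tissues, varied little, at 47.0 to 61.1 CPM in KHT and 59.0 to 63.8 CPM in IPT, against 0 to 49.0 CPM in NEG. Cox6a2 did not pass the filter on low counts. The median SD of log2(CPM + 1) over KHT and IPT libraries was 0.242 for the 82 members and 1.71 for Cox6a2, followed by 0.795 for Atp5k, 0.673 for Ndufab1 and 0.648 for Atp5g2.

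Among other tissue-related isoforms, Cox4i2, the isoform of subunit IV known from lung, had a single count, in IPT 1. Cox7a1, the isoform of subunit VIIa known from muscle, was at 4.59, 4.11, 2.94 and 4.97 CPM in KHT and at 0 in NEG, against 3.83, 3.38, 2.83 and 3.35 CPM in IPT. By the limit of 3 counts over NEG, KHT was at least 1.06-fold higher. Cox7a1 passed over NEG (edgeR adjusted p = 0.0416), but not in the fit of KHT and NEG alone (edgeR adjusted p = 0.0591). The counterpart of Cox7a1, Cox7a2, was at 29.3 ± 5.08 CPM in KHT and 44.4 ± 39.3 CPM in NEG, against 28.4 ± 3.71 CPM in IPT, and did not pass (-0.50, SE 0.49, edgeR adjusted p = 0.406 for KHT over NEG). The related Cox7a2l, a gene with a role in respiratory supercomplexes, had NEG counts in NEG 5 alone.

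**Figure D5:**
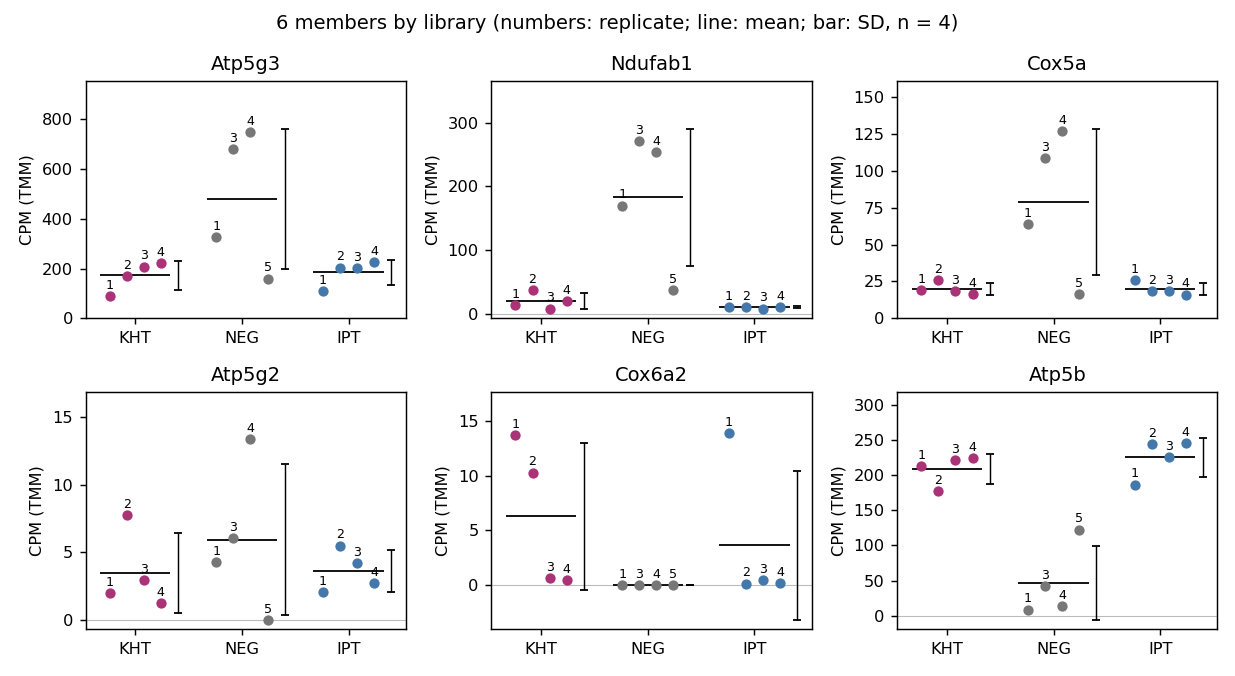
CPM (TMM-scaled) of 6 members in each KHT, NEG and IPT library, with replicate numbers at the points, lines for means and bars for the SD (n = 4). Atp5g3, Ndufab1 and Cox5a are highest in NEG 1, 3 and 4, Cox6a2 is high in KHT 1, KHT 2 and IPT 1, and Atp5b is lower in every NEG library than in any KHT or IPT library.

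The control pull-downs were also compared with the input, which shares its NEG libraries with the comparison of KHT and NEG, and its IPT libraries with that of KHT and IPT. In NEG, 5 of 79 members rose and 24 fell relative to IPT, beside 3.64% and 32.5% of all genes. The change was below 0 for 65 members, as it was for 87.4% of all genes. Ndufab1 had 170, 271, 254 and 36.8 CPM in NEG and 11.3, 11.0, 8.34 and 11.1 CPM in IPT, without overlap (log2 fold change 4.11, SE 0.63, edgeR adjusted p = 0.000552). It was the 1 member higher in NEG without overlap, where 1.74% of all genes were, and 27 members were lower without overlap, where 47.1% of all genes were. Cyc1 stood at 0, 0, 0 and 16.3 CPM in NEG and at 44.2, 47.6, 42.4 and 51.4 CPM in IPT (-3.23, SE 0.72, edgeR adjusted p = 0.0044). Without NEG 3 the counts were 2 and 15, beside 2.71% and 22.3% of all genes. Without NEG 5 they were 7 and 53, beside 4.46% and 47.4%. Without NEG 4 the rises numbered 3, beside 2.72% of all genes. Under total counts Ndufab1 was lower in NEG (-0.34) and no member was higher.

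Assembly factors, which build the complexes without staying in them, gave a second list of the pathway, with 54 genes in the table and 49 tested. Relative to NEG, 9 of the 49 rose in KHT and 1 fell, beside 31.0% and 2.72% of all genes, with a median of 1.49 over those tested and 1.73 over all genes. The rises included Acad9 and Cox15, which act in the assembly of complex I and complex IV, at 24.3 ± 1.93 and 24.2 ± 3.26 CPM in KHT, against 3.72 ± 4.33 CPM in NEG for each (2.68 for both, edgeR adjusted p = 0.00742 and 0.00945). The fall was Uqcc2, an assembly factor of complex III, at 12.2 ± 3.05 CPM in KHT and 41.1 ± 28.3 CPM in NEG (-1.66, edgeR adjusted p = 0.0115). Relative to IPT, no assembly factor passed in KHT, at an unadjusted p under 0.05 none did either, and the changes ran from -0.51 to 0.51. In NEG relative to IPT, 2 of the 49 rose and 11 fell, beside 3.64% and 32.5% of all genes. These examples were named after their values were seen, and without NEG 5 the rises in KHT over NEG numbered 16, beside 47.2% of all genes.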

How the data were processed

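The deposited table holds estimated counts (expected counts) per gene, unscaled, for every library. The submitters' processing notes name kallisto, DESeq2, GRCm38 and mm10. The step from transcripts to genes was not given in the sources used here. Values were already whole, and values of 2 outnumber values of 1 in all 12 libraries with counts, which would follow if both mates of each pair were counted. This was not settled, and if it holds, counting intervals and floors are too narrow. Reads of near-identical copies and pseudogenes cannot be told apart. NEG 2 was left out because all its values are 0.

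Genes were tested with edgeR 4.0.16 in R 4.3.3 (TMM, filterByExpr, robust glmQLFit and glmQLFTest), fitting the 3 groups together over 12 libraries. The filter kept 10714 genes, 79 of the 82 members among them (not Cox4i2, Cox6a2 and Cox7b2). Tests were two-sided with Benjamini-Hochberg adjustment at 0.05. The 95% intervals are from the same fit but use its residual degrees of freedom alone, while the p-values also borrow information on spread across genes. The intervals can thus be wider than the tests imply. For Atp5s in KHT over IPT, the interval held 0 at an unadjusted edgeR p of 0.0398. CPM are computed on TMM-scaled library sizes and are not divided by transcript length, so levels of different genes are not compared. A feature that held 0.5% or more of the pooled NEG counts counts as dominant. Floors were 3 counts over the group, or over the library where a library's share is given. A table of gene names gave symbols to 27004 of 27071 identifiers, and coordinates are RefSeq's, in its annotation of GRCm38.p6. The fit was tested on simulated counts.

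The members, lists and tests were chosen with earlier results of these data known. Named members are those past the threshold with groups that do not overlap and a mean of at least 5 CPM (the 5 largest and 5 smallest changes), a fixed set of 15 subunits (1 of them is not reported here), the isoform sets, and the 2 members of each complex highest in IPT. Ndufa11, Ndufb4, Atp5h, Atp5j, Atp5o and Atp5k were named outside this rule after their values were seen. Alternatives were DESeq2 1.42.0 and its size factors, other filters, total counts, 2 groups alone, halved values, a replicate block and leaving out each library. Cox6b2, Cox8b, Cox8c, Ndufb1 and Atp5md were not analysed here.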

Additional observations from a re-analysis of the deposited data

Results flagged for a closer look

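A check for a library far from the 3 others of its group was run on 122 sets of 4 values, and 19 stood out. For independent values without ties chance gives about 1 in 20, but sets of few counts with zeros can stand out through a single count, and the shares of complexes repeat their members, so the 19 cannot be read against that rate. NEG had 10 of them, 9 with NEG 5 as the highest library, and IPT had 9, 7 of them in IPT 1. KHT had none.

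In NEG, NEG 5 was highest for Ndufa10 and Ndufb5 (4.09 CPM each), Cyc1 (16.3 CPM), Cycs and Cox7a2l (36.8 CPM each), all with the 3 others at 0, and for Ndufs1 (61.3 CPM, next 6.03 CPM). The same library was highest for the summed shares of complex II (0.0612%, next 0.0144%), complex III (0.124%, next 0.0202%) and cytochrome c (0.0183%, next 0%). For Ndufa10 and Ndufb5 this is a single count. Sdhb was at 0 CPM in NEG 1, with the next at 18.1 CPM.

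In IPT, IPT 1 was highest for Cox6a2 (13.8 CPM, next 0.447 CPM) and for Cox4i2 (0.107 CPM, a single count). It was lowest for Ndufb5 (10.7 CPM), Ndufs1 (34.8 CPM), Cox6c (44.6 CPM), the share of complex V (0.317%, next 0.417%) and that of complex V outside its F1 part (0.156%, next 0.212%). Ndufab1 was lowest in IPT 3 (8.34 CPM, next 11.0 CPM), and the share of complex II in IPT 2 (0.0527%, next 0.0575%).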

How the results depend on the processing

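Between KHT and IPT no member passed under any alternative run. The counts against NEG depended on the processing. In KHT relative to NEG, 20 rises and 5 falls became 9 rises when genes had to average 10 CPM, which is 15.3% of the 59 members tested there. They became 78 rises and 0 falls with total counts and no TMM, and 8 and 3 with the 2 groups alone. With no filter there were 3 falls, and without KHT 1, KHT 2 and IPT 1 there were 12 rises. Over all genes, 24.5% rose at a mean of 10 CPM, 97.3% with total counts, 24.8% with the 2 groups alone and 21.7% without KHT 1, KHT 2 and IPT 1. With no filter, 24.4% of members and 14.1% of all genes rose, and 2.92% of all genes fell. Leaving out 1 library gave 13 to 51 rises and 2 to 6 falls, beside 15% to 47.2% and 1.52% to 3.95% of all genes. In NEG relative to IPT, 5 rises and 24 falls became 3 rises with no filter and 10 falls at a mean of at least 10 CPM (16.9% of 59 members). They became 0 and 78 with total counts, and 13 falls with the 2 groups alone. Over all genes these runs gave 3.65% rises, 26.2% falls, 0.467% and 97.3%, and 21.9% falls, in the same order. Leaving out 1 library gave 2 to 7 rises and 15 to 53 falls, beside 2.71% to 4.46% and 15.6% to 47.4% of all genes.

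With total counts and no TMM, 6 named members changed direction. In KHT over NEG the values were 0.95 for Ndufab1, 2.24 for Cox5a, 3.63 for Cox7a2, 3.48 for Cox8a, 3.41 for Atp5g2 and 2.68 for Atp5g3. In NEG over IPT they were -0.34, -2.48, -3.84, -3.82, -3.72 and -3.09 in the same order. The median of all genes moved to 5.66 and -5.90, against 1.73 and -1.74, and in KHT over IPT to -0.24, against 0.01.

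The replicate block gave 50 rises and 7 falls in KHT relative to NEG (63.3% and 8.86% of members), beside 47.1% and 3.34% of all genes. In NEG relative to IPT the block gave 7 rises and 50 falls, beside 4.1% and 46.9% of all genes, and in KHT relative to IPT none. By construction it gives NEG 5 a term of its own, since no other library has that number. In a calculation separate from the library correlations above, same-numbered KHT and IPT libraries correlated at 0.0491, -0.544, 0.209 and 0.124. Differently numbered ones ran from -0.550 to 0.656. These values do not settle whether the numbers pair the samples. The depth of the NEG libraries, where 1 count is 4.09 to 6.69 CPM, limits what can be seen for members of low level.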
